A study of Drosophila melanogaster with 30 samples.

Results

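The vacuolar H+-ATPase (V-ATPase) subunit genes of the fly are described here in m6A-IP sequencing libraries from *Drosophila* heads, in which fragments with N6-methyladenosine (m6A) are pulled down by an antibody, and each IP library has an input library of its own RNA sample. The genes were chosen by name alone, as every row of the count table whose symbol starts with Vha, which gave 32 of 17562 genes. All 32 matched the annotation as protein-coding genes. They lie on chromosome arms 3R (11 genes), 2R (8), 2L (6), 3L (5) and X (2).

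The study asked how the tRNA methyltransferase dTrmt10A affects m6A and the response to heat in the fly head. Per the study's methods all flies were males, and per the labels they were 1 to 2 days old and raised at 25 °C. All carried the daGal4 driver, which is active in nearly all cells, so no group is specific to neurons. The groups were the control, with the driver over a KK control line (headed kkRNAi in the counts), *dTrmt10A* RNAi and UAS-*dTrmt10A* (upregulation), all in basal conditions. Control and UAS-*dTrmt10A* flies were also taken after heat shock (HS), 30 min at 38.5 °C with 20 flies per vial, while *dTrmt10A* RNAi after HS is not analysed here. Each of the 5 groups has 3 replicates of 200 pooled heads, each with an input and an IP library. Whether the KK control line carries an RNAi construct is not stated in the sources used here.

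The V-ATPase is a rotary proton pump that acidifies lysosomes, endosomes and synaptic vesicles with the energy of ATP. Its cytosolic V1 sector holds the catalytic subunit A with its nucleotide-binding partner B, a central stalk of D and F and peripheral stalks of E and G with C and H. The membrane sector V0 holds the proton-carrying ring of c and c'' subunits, subunit a with the proton channels, subunit d and the small subunit e. In neurons the proton gradient drives the loading of neurotransmitter into vesicles, and many subunits are encoded by several genes in the fly, some of them known from the male germline.

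Subunit A shows how close such copies are, because its 3 genes carry the same ATP-binding P-loop in different codons. The windows below hold the codons of the P-loop with 1 codon on each side, from the RefSeq genome sequence of dm6. They lie at chr2L:13002632-13002661 on the minus strand for Vha68-1, and on the plus strand at chr2L:12976785-12976814 for Vha68-2 and chr2L:12980010-12980039 for Vha68-3. Each is written 5′ to 3′ on the coding strand, with capitals at the bases that are unlike those of Vha68-1.
Vha68-1: cccggtgcctttggctgcggcaagaccgtc
Vha68-2: cccggAgcTttCggTtgcggcaagacTgtG
Vha68-3: ccAggAgcGtttggAtgTggAaagaccgtc
Vha68-2 and Vha68-3 each differ from Vha68-1 at 6 bases, all at wobble positions of codons, and 0 codons of either window stand for another residue. Over the whole coding sequence Vha68-1 and Vha68-2 were 86.2% identical, and the longest exon sequence that they share without a mismatch is 83 bp. Of all pairs of genes for 1 subunit the next closest, Vha36-1 and Vha36-3 of subunit D, were 77.7% identical with a longest shared run of 50 bp, while Vha100-1 and Vha100-2 of subunit a were 63.9% identical with 22 bp. Since the treatment of reads with several hits is not given in the sources used here, the division of reads between Vha68-1 and Vha68-2 is less certain than for the other pairs.

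Total counts were 20110909 to 51006574 per input library and 16255688 to 30456825 per IP library, and the V-ATPase genes held 0.341% to 0.457% of the input counts. *dTrmt10A* (CG14618) had a mean of 8.09 CPM (read counts scaled by TMM to a common library size) in control heads, 3.86 in *dTrmt10A* RNAi, 166 in UAS-*dTrmt10A*, 5.68 in control HS and 245 in UAS-*dTrmt10A* HS heads, lower with RNAi and higher with UAS as labelled. Head markers were high, with the 5 photoreceptor genes summing to 28170 to 39700 CPM and the 5 neuronal genes to 2778 to 3643 CPM. The 5 male germline markers summed to 1.27 to 4.41 CPM. In bulk heads, fewer cells of a type and less RNA per cell cannot be told apart.

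Among the V1 genes the peripheral stalk gene Vha13 had the highest input level per kb of exon in basal control heads. Vha13 (subunit G, chr3R:19643018-19644386) had 389, 421 and 422 CPM per kb in the lowest, median and highest control library, and 439.9 as the mean of all 15 input libraries. The catalytic gene Vha68-1 (A, chr2L:13000770-13004107) followed with 151, 156 and 157 CPM per kb. Vha36-1 (D, chr2R:15541435-15542498), Vha55 (B, chr3R:12623762-12627829) and Vha26 (E, chr3R:5591763-5595356) came next, with 130.5 to 139.7, 131 to 136 and 128 to 134 CPM per kb, and these 3 overlapped and cannot be put in an order. Vha14-1 (F, chr2R:15679426-15680084) had 97.1 to 108 CPM per kb. Vha44 (C, chr2R:16324813-16336637) with 69.6 to 72.1 and VhaSFD (H, chr2L:16722883-16727826) with 70.1 to 72.2 CPM per kb overlapped as well.

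Of the V0 genes, the ring gene Vha16-1 (c, chr2R:6625242-6633090) was highest, with 200.3, 204 and 212 CPM per kb in the lowest, median and highest control library. VhaPPA1-1 (c'', chr3R:14902330-14904061), the other ring subunit, had 112 to 117, Vha100-1 (a, chr3R:29131193-29137980) 100.2 to 102 and VhaAC39-1 (d, chrX:3880748-3882967) 73.9 to 76.3 CPM per kb. The highest gene of subunit e, VhaM9.7-a (chr3L:4262705-4263464), had 39.5 to 41.6 CPM per kb, and the accessory subunit gene VhaAC45 (chr2R:9207561-9209774) 57.0 to 58.8 CPM per kb. Vha14-1 and Vha100-1 overlapped in this order, while VhaPPA1-1 lay above both and VhaAC39-1 below both in every control library.

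**Figure D1:**
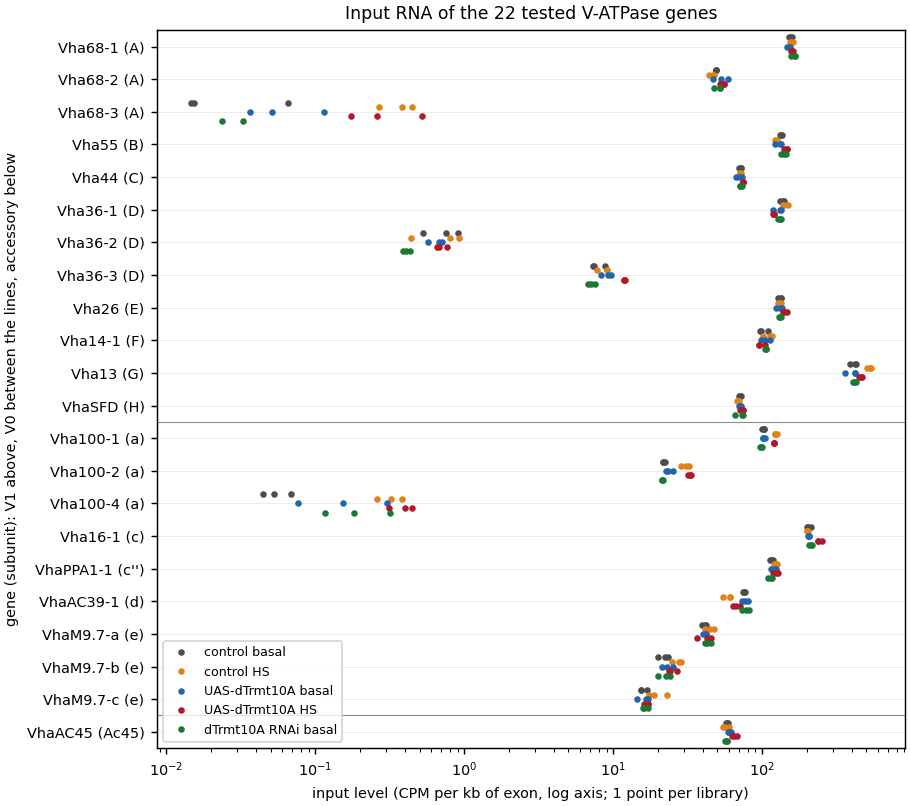
Input level of the 22 V-ATPase genes that were tested in at least 1 comparison, in CPM per kb of exon on a log axis, with 1 point per input library and colour by group. Vha13 (G) lies farthest right at 398 to 522 CPM per kb as group means, and Vha68-3, Vha100-4 and Vha36-2 lie below 1 CPM per kb (1 library of Vha68-3 at 0 is not drawn).

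The second genes of a subunit were lower, by less for subunit e than for subunits A, a and D, or hardly detected. Vha68-2 (A) had 50.5 CPM per kb over all input libraries, Vha100-2 (a) 26.0, VhaM9.7-b and VhaM9.7-c (e) 23.7 and 16.9, and Vha36-3 (D) 8.92. Vha36-2 (D), Vha100-4 (a) and Vha68-3 (A) had 0.641, 0.229 and 0.160 CPM per kb. The other 10 genes (Vha100-3, Vha100-5, Vha14-2, Vha16-2, Vha16-3, Vha16-4, Vha16-5, VhaAC39-2, VhaM9.7-d and VhaPPA1-2) had at most 7 counts in any input library and were tested in no comparison, and Vha16-3 had 0 counts in all 15. For these, the detection floor of 3 counts corresponds to 0.0588 to 0.149 CPM in input, and changes below it could not be seen at this depth.

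Where paralogs exist, 1 gene per subunit held most of the signal, except in subunit e. In basal control heads Vha16-1 held 99.9% ± 0.0173 (SD, n = 3) of the CPM per kb of the 5 subunit c genes. For subunit D, Vha36-1 held 94.6%, 93.15% and 94.4% in the control replicates. For subunit a, Vha100-1 held 82.1%, 82.5% and 82.2%, and for subunit A, Vha68-1 held 75.95%, 76.4% and 75.5%. For subunit e, VhaM9.7-a held 50.7%, 53.8% and 51.6%, with VhaM9.7-b and VhaM9.7-c making up nearly all of the rest, and after HS its share was 48.85% on average in control and 49.7% in UAS-*dTrmt10A* heads. These shares do not depend on the library scaling.

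The share of Vha100-1 was lower after HS in both genotypes. It was 79.0%, 80.8% and 80.0% in control HS heads, 80.0%, 81.6% and 81.7% in basal UAS-*dTrmt10A* heads and 78.05%, 78.6% and 78.9% in UAS-*dTrmt10A* HS heads, so neither pair of HS and basal groups overlapped. The share of Vha36-1 was 92.8%, 93.1% and 92.9% in basal UAS-*dTrmt10A* heads and 90.6%, 90.5% and 90.35% in UAS-*dTrmt10A* HS heads. These last 3 values lie below all others, including the 93.25% to 94.4% of control HS heads. With 3 against 3 samples the exact two-sided permutation test cannot go below p = 0.1, the value it gave for each of these differences, and the adjusted p over the 40 tests run was at least 0.444. No difference in share therefore passed the threshold.

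**Figure D2:**
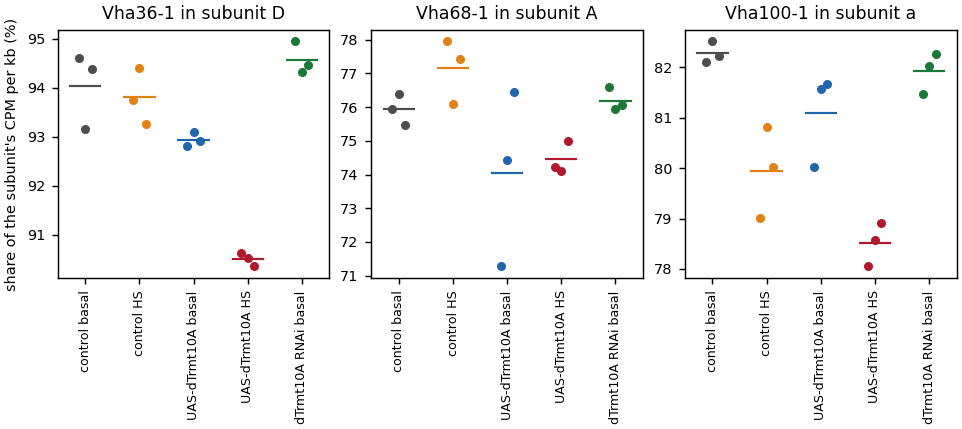
Share of the summed CPM per kb of a subunit held by its most abundant gene, in percent, for subunits D, A and a, with 1 point per replicate and a bar at the mean of 3; each vertical axis covers only the range of the values. Vha36-1 is lowest in the UAS-dTrmt10A HS heads (90.5% on average), and Vha100-1 is lower in both HS groups than in the basal group of the same genotype.

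With HS in control heads, RNA of subunit a and G genes rose and RNA of the subunit d gene fell on the TMM scale, while with total library size the rises of Vha100-1 and Vha13 turned below 0. Of 22 V-ATPase genes tested, 6 were higher and 1 was lower (edgeR quasi-likelihood test, adjusted p under 0.05), in a comparison in which 42.4% of all 10219 genes passed, 19.3% as higher and 23.1% as lower. Of the 6, Vha68-3 and Vha100-4 had no basal control library with 10 counts and passed the filter on low counts only through their HS libraries, so that they had to differ. Of the other 20 genes 4 were higher and 1 was lower, close to the share of all genes for the higher ones, and their median log2 change was 0.03, against 0.07 over all 22 and -0.00 over all genes. Markers of other kinds moved in the same comparison: 5 of 5 muscle genes, 3 of 5 photoreceptor genes and 2 of 5 neuronal genes were higher, and of 5 glial genes alrm was higher and repo lower (54.7 to 59.5 CPM in basal, 20.8 to 31.8 CPM in HS control heads). Of 5 fat body genes Fbp1 was higher and Yp1 lower, where Yp1 had 0.466, 1.34 and 377 CPM in the basal replicates in order of level. Yp1, a yolk protein gene, also had 0.268 to 174 CPM in basal UAS-*dTrmt10A*, 5.3 to 250 CPM in UAS-*dTrmt10A* HS and 4.04 to 450 CPM in *dTrmt10A* RNAi heads. The sex of the pooled flies was not checked in these data. The summed level of the muscle list was 4390 to 5177 CPM in basal and 5386 to 6950 CPM in HS control heads, and the part of these markers in the V-ATPase values was not tested. Scaling by total library size moved the median of all genes to -0.36, and on that scale 2 V-ATPase genes were higher and 13 lower, with a median of -0.29, still above that of all genes.

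Vha100-2, a copy of the channel subunit a, had 71.5, 69.6 and 69.6 CPM in basal and 104, 91.3 and 99.5 CPM in HS control heads. All HS libraries were above all basal ones, with a log2 change of 0.47 (SE 0.061, adjusted p = 5.04e-04 from edgeR), and 0.11 with total library size. Vha100-1 had 335, 336 and 329.7 CPM in basal and 403, 397 and 410.2 CPM in HS heads. The groups did not overlap and the log2 change was 0.26 (SE 0.045, adjusted p = 0.00215 from edgeR), which turned to -0.10 with total library size. Vha13 of the peripheral stalk had 398, 367 and 397 CPM in basal and 503, 477 and 497 CPM in HS heads. The groups did not overlap and the log2 change was 0.33 (SE 0.054, adjusted p = 0.00153 from edgeR), against -0.02 with total library size.

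VhaAC39-1, which seats the central stalk on the membrane ring, had 136, 137 and 132 CPM in basal and 98.3, 109 and 109 CPM in HS control heads. With TMM scaling it was the only V-ATPase gene that passed as lower: it fell by 0.37 on the log2 scale (SE 0.057, adjusted p = 0.00109 from edgeR), and it stayed past the threshold under all 14 alternatives run. VhaM9.7-b of subunit e had 28.1, 24.2 and 26.8 CPM in basal and 34.4, 29.9 and 33.4 CPM in HS heads. Its change of 0.29 (SE 0.079, adjusted p = 0.0178 from edgeR) did not overlap between groups, but it lost the threshold in 4 of the 6 fits with a library left out (adjusted p up to 0.0839) and turned to -0.07 with total library size.

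Vha68-3 and Vha100-4 had the largest fold changes of the 22 V-ATPase genes tested and the fewest reads among them, and since they passed the filter only through the HS group, they are given by their counts and with no test. Vha68-3, a minor subunit A gene, had 4, 1 and 1 counts in basal and 12, 18 and 20 counts in HS control libraries. The ratio of the summed counts, each divided by the summed TMM-scaled library size, was 11.8 over 50 and 6 counts (95% exact interval 5.06 to 33.7, counting error only). Vha100-4 (a) had 3, 5 and 4 counts in basal and 19, 17 and 13 counts in HS control libraries. Its ratio was 5.79 (3.04 to 11.96). The HS libraries of both genes were above all basal control libraries. The filter on low counts favoured this separation, so neither it nor the intervals test a rise.

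Both genes follow a more abundant copy of the same subunit on the same strand. Vha68-3 (chr2L:12978786-12981293) starts 179 bp after the end of Vha68-2, and Vha100-4 (chr3R:18386841-18389805) starts 518 bp after the end of Vha100-2. Vha68-2 had a log2 change of -0.10 in the same comparison (SE 0.051, adjusted p = 0.133 from edgeR), and Vha100-2 changed by 0.47. Of the exons of Vha100-4, 1.72% lie opposite those of cona, whose reads cannot be told apart where strand was not used in counting. In UAS-*dTrmt10A* heads Vha68-3 had 6, 3 and 5 counts in basal conditions and 27, 9 and 21 after HS, a ratio of 5.46 (3.002 to 10.6), and was too low to be tested. Vha100-4 had 9, 5 and 46 counts in basal and 18, 26 and 36 counts in HS UAS-*dTrmt10A* libraries, or 0.418, 0.210 and 0.822 CPM against 0.846, 1.22 and 1.09 CPM. The groups did not overlap, but basal replicate 3 lay close to the lowest HS library, and the change did not pass (0.96, SE 0.429, adjusted p = 0.109 from edgeR).

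Vha100-4 was also above the basal control level in the other basal groups. It had 24, 8 and 17 counts in *dTrmt10A* RNAi libraries. The ratio to basal control, of summed counts over summed library size, was 3.72 (95% exact interval 1.95 to 7.69) for *dTrmt10A* RNAi. For basal UAS-*dTrmt10A* heads it was 3.92 (2.09 to 8.01), where the deepest library weighs most. The mean CPM was 0.15 in basal control, 0.56 in *dTrmt10A* RNAi and 0.48 in basal UAS-*dTrmt10A* heads. Basal control heads were the lowest of the 5 groups for this gene, which was too low to be tested in these comparisons. The gene had been singled out with low basal control counts, so these ratios and intervals, which cover counting error only, are no test. Basal UAS-*dTrmt10A* replicate 2 (0.210 CPM) lay close to the highest basal control library (0.186 CPM). Vha68-3 had 0, 2 and 2 counts in *dTrmt10A* RNAi libraries, and its ratios to basal control of 0.608 (0.126 to 2.56) for *dTrmt10A* RNAi and 1.83 (0.661 to 5.81) for UAS-*dTrmt10A* had intervals that include 1.

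With HS in UAS-*dTrmt10A* heads, both abundant subunit a genes rose as well on the TMM scale, and so did Vha36-3 and Vha16-1. These rises did not pass with total library size. Of 21 V-ATPase genes tested, 4 were higher and 1 was lower, where 40.7% of all 10352 genes passed (18.7% higher, 22.0% lower), with medians of 0.09 over the V-ATPase genes and -0.00 over all genes. The higher ones were close to the share of all genes. Vha100-2 had 80.4, 75.5 and 72.4 CPM in basal and 107, 105 and 102 CPM in HS heads, a log2 change of 0.46 (SE 0.063, adjusted p = 8.27e-04 from edgeR). Vha100-1 had 331, 343 and 334 CPM in basal and 392, 397 and 395 CPM in HS heads, a change of 0.23 (SE 0.054, adjusted p = 0.00971 from edgeR). In both the groups were apart. With total library size Vha100-2 stayed above 0 but did not pass as higher.

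Vha16-1, the gene of the proton-carrying ring, had 637, 635 and 628 CPM in basal and 772, 723 and 730.3 CPM in HS UAS-*dTrmt10A* heads. It rose by 0.23 (SE 0.058, adjusted p = 0.0139 from edgeR) on the log2 scale, whereas in control heads it had 627, 651 and 616 CPM in basal and 611, 612 and 623 CPM after HS, with a change of -0.05 (SE 0.049, adjusted p = 0.418 from edgeR). Vha36-3, the minor copy of the central stalk subunit D, had 12.5, 11.98 and 10.7 CPM in basal and 15.2, 15.3 and 15.5 CPM in HS heads, a change of 0.39 (SE 0.083, adjusted p = 0.00626 from edgeR) that was 0.02 with total library size. VhaAC39-1 had 143, 137 and 131 CPM in basal and 120.2, 127 and 114.6 CPM in HS heads, a change of -0.19 (SE 0.065, adjusted p = 0.0495 from edgeR) that lost the threshold in all 6 fits with a library left out. All 5 neuronal and all 5 muscle markers were higher in this comparison, with neuronal sums of 2778 to 2858 CPM in basal and 3521 to 3643 CPM in HS heads, and their part in these values was not tested. With total library size 0 V-ATPase genes were higher and 15 lower, with Vha100-1 at -0.14 and Vha16-1 at -0.14, against a median of -0.37 over all genes. Fitting all input libraries together gave 7 higher and 1 lower.

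The difference between genotypes in the response to HS was tested as an interaction, and no V-ATPase gene passed in edgeR (0 of 22, against 0.0379% of all 10544 genes, with 2 V-ATPase genes above and 2 below 0 when p was not adjusted). Vha55, the nucleotide-binding partner of subunit A, came closest with Vha16-1. Vha55 had 370, 378 and 365 CPM in basal and 342, 342 and 347 CPM in HS control heads, and 372, 365 and 337 CPM in basal and 409, 409 and 391 CPM in HS UAS-*dTrmt10A* heads. Its response was 0.28 higher in UAS-*dTrmt10A* heads (SE 0.070, adjusted p = 0.119 from edgeR), and that of Vha16-1 was 0.27 higher (SE 0.065, adjusted p = 0.117 from edgeR). With DESeq2's Wald test both passed (adjusted p = 0.00444 and 0.00192), and over the other alternatives the edgeR adjusted p stayed above the threshold, up to 0.32 and 0.341.

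**Figure D3:**
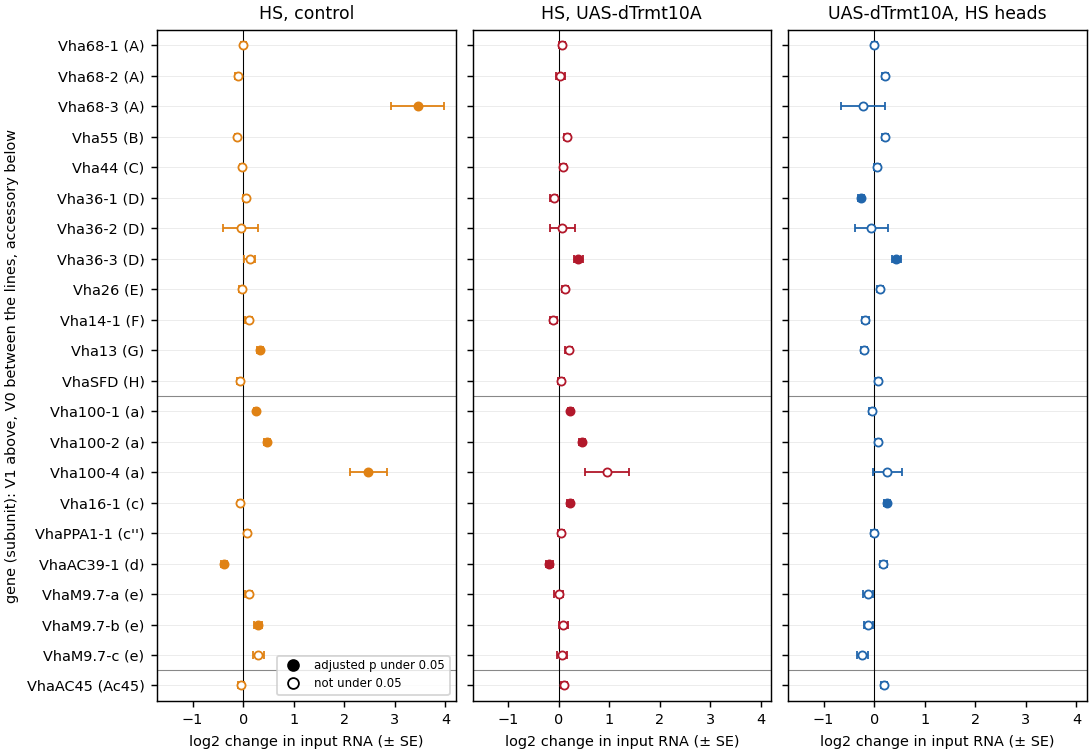
Log2 change in input RNA (point, with ± SE of the edgeR fit) of the V-ATPase genes with HS in control heads, with HS in UAS-dTrmt10A heads, and with UAS-dTrmt10A in HS heads, scaled by TMM. Filled points have an adjusted p under 0.05: 7 of 22 genes (Vha68-3 and Vha100-4 through a filter that their HS counts alone passed), 5 of 21 and 3 of 22; with total library size the HS changes shift down by about the median of all genes (-0.36 and -0.37), and 10 of 22 in control and 14 of 21 in UAS-dTrmt10A heads change sign, among the filled points Vha100-1, Vha13 and VhaM9.7-b in control and Vha100-1 and Vha16-1 in UAS-dTrmt10A heads.

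On the TMM scale most of the core subunits showed no change past the threshold with HS in either genotype, whereas with total library size 13 of 22 V-ATPase genes passed as lower in control and 15 of 21 in UAS-*dTrmt10A* heads. The catalytic gene Vha68-1 had 417, 421 and 404 CPM in basal and 418, 409.7 and 432 CPM in HS control heads, and 393, 413 and 407 CPM in basal and 430.2, 424 and 418 CPM in HS UAS-*dTrmt10A* heads. Its changes were 0.00 (SE 0.048, adjusted p = 0.957 from edgeR) and 0.07 (SE 0.058, adjusted p = 0.381). The peripheral stalk gene Vha26 had 388, 392 and 375 CPM in basal and 374, 378 and 391 CPM in HS control heads (-0.03, SE 0.048, adjusted p = 0.634 from edgeR). Both genes overlapped between conditions in control heads. Vha14-1, the central stalk subunit F, had 71.5, 64.0 and 64.2 CPM in basal and 76.7, 67.0 and 73.7 CPM in HS control heads, and 64.8, 73.9 and 69.1 CPM in basal and 62.9, 62.3 and 68.2 CPM in HS UAS-*dTrmt10A* heads, again with overlap in both genotypes.

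The regulatory subunits C and H, which link V1 to the membrane sector, and the ring subunit c'' did not pass with TMM scaling either. VhaSFD (H) had 204, 200.0 and 198 CPM in basal and 196, 192 and 193 CPM in HS control heads, a change of -0.07 (SE 0.045, adjusted p = 0.252 from edgeR) although the groups were apart. VhaPPA1-1 (c'') had 159, 151 and 157 CPM in basal and 163, 167 and 171 CPM in HS control heads, also apart (0.08, SE 0.048, adjusted p = 0.2 from edgeR). The accessory gene VhaAC45 had 114.7, 116 and 118 CPM in basal and 109, 120.0 and 113 CPM in HS control heads, which overlapped. In UAS-*dTrmt10A* heads VhaAC45 had 124, 121 and 118 CPM in basal and 135, 130.3 and 127 CPM in HS libraries, apart but not past the threshold (0.11, SE 0.060, adjusted p = 0.183 from edgeR). VhaM9.7-a (e) stayed between 26.0 and 33.4 CPM in all 15 input libraries.

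Between UAS-*dTrmt10A* and control heads after HS, 2 V-ATPase genes were higher and 1 was lower of 22, where 6.53% of all 10287 genes passed (3.2% higher, 3.33% lower). The 2 higher genes were Vha36-3 (10.1 to 11.8 CPM in control HS, 15.2 to 15.5 CPM in UAS-*dTrmt10A* HS heads; log2 change 0.44, SE 0.089, adjusted p = 0.0286 from edgeR) and Vha16-1 (611 to 623 and 723 to 772 CPM; 0.26, SE 0.057, adjusted p = 0.0351 from edgeR). The major subunit D gene Vha36-1 was lower, with 159, 148 and 148 CPM in control HS and 128, 128 and 126 CPM in UAS-*dTrmt10A* HS heads (-0.26, SE 0.056, adjusted p = 0.0330 from edgeR). None of the 3 overlapped between groups. Of the 5 neuronal markers 1 was higher in this comparison, and their sum was 3187 to 3342 CPM in control HS and 3521 to 3643 CPM in UAS-*dTrmt10A* HS heads. Of 5 photoreceptor genes norpA was higher (718 to 800 and 1018 to 1131 CPM), and of 5 fat body genes Yp1 was higher (0.271 to 1.42 and 5.30 to 250 CPM), while 0 of 5 glial and 0 of 5 muscle genes passed. The part of these markers in the V-ATPase values was not tested. The 2 copies of subunit D thus moved in opposite directions in the same libraries, which is the change in share described above.

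These 3 calls rest on all 6 libraries. Leaving out any one left 0 V-ATPase genes past the threshold, except that Vha36-1 still passed without control HS replicate 2. The inputs of these groups also shared deviations by replicate number, and with a replicate block 6 genes passed, 4 higher and 2 lower, of 11.6% of all genes. The block added Vha55 (0.22, adjusted p = 0.0342 from edgeR) and Vha68-2 (0.22, adjusted p = 0.0454) as higher and Vha13 (-0.21, adjusted p = 0.0324) as lower. Vha13 had 503, 477 and 497 CPM in control HS and 433, 418 and 438 CPM in UAS-*dTrmt10A* HS heads, which did not overlap.

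In basal conditions, 0 of 20 V-ATPase genes passed the threshold in either genotype. UAS-*dTrmt10A* against control gave 0 genes at an unadjusted p under 0.05 as well, where 2.81% of all 10206 genes passed the adjusted threshold, and the changes ran from -0.16 to 0.19 on the log2 scale. *dTrmt10A* RNAi against control gave 1 gene at an unadjusted p under 0.05, where 0.714% of all 10225 genes passed. That gene was the scarce Vha36-2, with 17, 26 and 33 counts in control and 14, 14 and 18 counts in *dTrmt10A* RNAi libraries (log2 change -0.84, SE 0.298, adjusted p = 0.34 from edgeR). DESeq2's Wald test also gave 0 V-ATPase genes in both comparisons. Of the abundant genes Vha16-1 had 660, 653 and 637 CPM and Vha13 400.3, 382 and 388 CPM in *dTrmt10A* RNAi heads.

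Genes that assemble, regulate or depend on the pump were counted as lists, beside 19.3% of all genes higher and 23.1% lower with HS in control heads and 18.7% and 22.0% in UAS-*dTrmt10A* heads. Of 6 assembly and regulation genes (median log2 change -0.09), 2 fell with HS in control heads: Rbcn-3A by 0.31 (adjusted p = 0.00241 from edgeR) and Rbcn-3B by 0.25 (adjusted p = 0.00791), which encode the rabconnectin-3 proteins that promote joining of V1 to V0. In UAS-*dTrmt10A* heads 1 of the 6, mtd, rose by 0.26 with HS (adjusted p = 0.00571 from edgeR) and 0 fell. Of 17 lysosomal genes tested (median 0.09), 4 rose and 2 fell in control heads, shares near or below those of all genes. The risers were the cholesterol carrier Npc2a (0.49, adjusted p = 1.95e-04 from edgeR), the lysosomal transporter gene spin (0.49, adjusted p = 8.65e-04), Cln3 (0.23, adjusted p = 0.0430) and the glucocerebrosidase gene Gba1b (0.21, adjusted p = 0.0187), and Ect3 fell by 0.30 (adjusted p = 0.0100) and Npc1a by 0.16 (adjusted p = 0.0322). With total library size all changes with HS lie lower by about the median shift of -0.36, which exceeds the rises of Cln3 and Gba1b.

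In UAS-*dTrmt10A* heads 5 of 17 lysosomal genes rose with HS and 0 fell (median 0.19), where 18.7% of all genes were higher and 22.0% lower: spin (0.55), Sap-r (0.32), Lamp1 (0.31), Npc2a (0.26) and CtsB1 (0.20), with adjusted p from 3.71e-04 to 0.0420 in edgeR, and apart from spin these rises are smaller than the shift of -0.37 that total library size brings. Of the 5 vesicular transporters, which load neurotransmitter with the proton gradient, VGAT for GABA fell with HS by 0.67 in control (adjusted p = 1.10e-04 from edgeR) and by 0.58 in UAS-*dTrmt10A* heads (adjusted p = 9.59e-04). Vmat for monoamines and VGlut for glutamate rose by 0.41 and 0.31 in UAS-*dTrmt10A* heads (adjusted p = 8.95e-04 and 0.00275 from edgeR), where that shift exceeds the rises of VGlut and mtd. Against control, Gba1b was higher in basal UAS-*dTrmt10A* heads (0.41, adjusted p = 0.0369 from edgeR; 2.81% of all genes passed). In HS heads, where 6.53% of all genes passed, Ect3, Gba1b and Vmat were higher with UAS-*dTrmt10A* (0.43, 0.37 and 0.24) and Cln3 was lower (-0.58), with adjusted p from 0.00964 to 0.0448 in edgeR. With *dTrmt10A* RNAi 0 genes of these 3 lists passed, where 0.714% of all genes did. For changes of IP/input between groups, tested without pairing, 0 of their genes passed, where 0.0% to 0.945% of all genes did. These lists were not counted with input and IP as a pair.

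In the IP, most V-ATPase transcripts were depleted against input and only a few were enriched. The log2 IP/input of a gene compares its share of the IP library with its share of the input library, over the whole gene, after TMM scaling. In basal control heads 3 of 20 V-ATPase genes were higher in IP and 13 were lower in edgeR, where 69.8% of all 10080 genes passed, 35.3% as higher and 34.6% as lower. The median was -0.65 over the V-ATPase genes and -0.05 over all genes. IP/input with TMM is relative to the other genes, and total library size lowered the median of all genes to -0.20 in this group.

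The 3 enriched genes were among the most abundant. Vha16-1 (c) had log2 IP/input of 0.36, 0.53 and 0.55 in the control replicates, and a fitted value of 0.50 (SE 0.076, adjusted p = 1.64e-04 from edgeR). Vha13 (G) had 0.27, 0.39 and 0.26 (fit 0.33, SE 0.069, adjusted p = 0.00163 from edgeR). Vha26 (E) had 0.19, 0.18 and 0.22 (fit 0.22, SE 0.066, adjusted p = 0.0126 from edgeR), and lost the threshold with total library size (0.07, adjusted p = 0.392), without control replicate 1 (adjusted p = 0.0729) and without replicate 3 (adjusted p = 0.141). All 9 replicate values lay above 0, although the genes stood only at the 73.0th, 65.8th and 61.6th percentile of all genes tested.

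The lowest values were those of the minor genes of subunits e and a. VhaM9.7-b had -1.43, -1.39 and -2.08 in the control replicates (fit -1.60, SE 0.155, adjusted p = 6.28e-06 from edgeR), at the 0.903rd percentile of all genes. VhaM9.7-c followed at the 5.76th percentile. Vha100-2 (-0.86), VhaAC45 (-0.86), Vha55 (-0.83) and VhaPPA1-1 (-0.79) came next by fitted value, and Vha68-2, VhaAC39-1, VhaSFD, VhaM9.7-a, Vha100-1, Vha14-1 and Vha36-1 lay between -0.71 and -0.56, with adjusted p up to 1.77e-04 in edgeR. The remaining 4 did not pass: Vha68-1 at -0.14 (adjusted p = 0.084 from edgeR, 0.0417 with input and IP as a pair), Vha36-2 at -0.12, Vha44 at -0.01 and Vha36-3 at -0.01.

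Copies of 1 subunit also had different IP/input. In subunit A, Vha68-1 had -0.14, -0.23 and -0.12 in the control replicates and Vha68-2 had -0.63, -0.81 and -0.75. In subunit D, Vha36-1 had -0.52, -0.63 and -0.60 and Vha36-3 had -0.15, -0.25 and 0.31. In both subunits the copies did not overlap, and the better represented copy was higher in subunit A and lower in subunit D. Of the genes for subunits A and B, Vha55 (B) had -0.66, -0.99 and -0.92, below Vha68-1 (A) in every replicate.

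**Figure D4:**
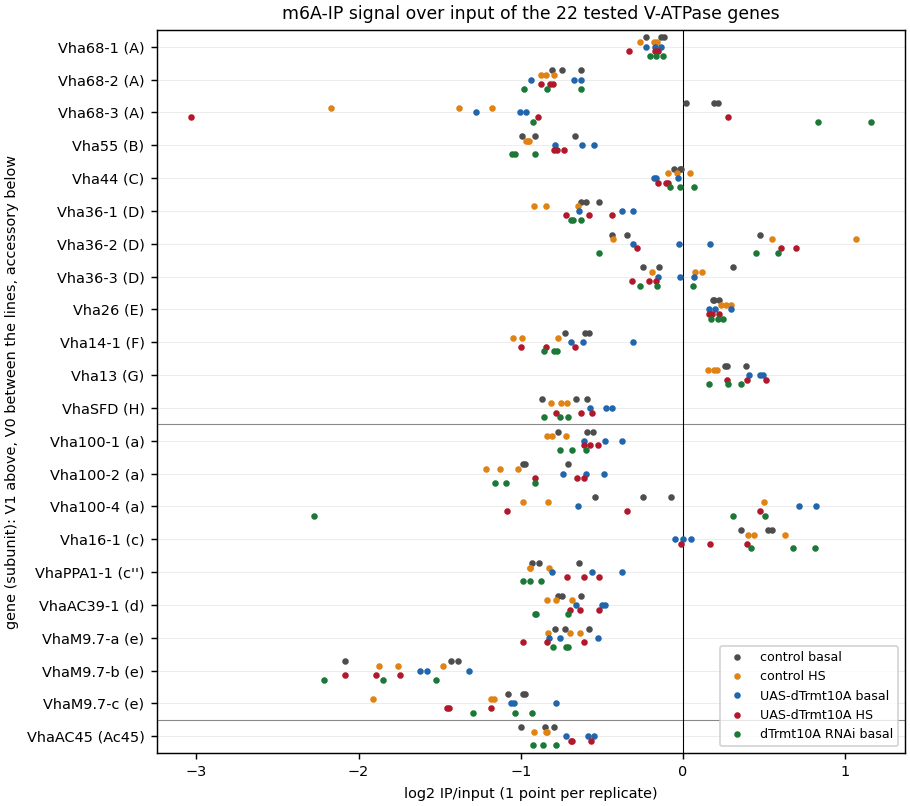
Log2 IP/input of the 22 tested V-ATPase genes over the whole gene, with 1 point per replicate and colour by group, scaled by TMM over all 30 libraries. Vha26 and Vha13 lie right of 0 in all 15 replicates and VhaM9.7-b between -2.21 and -1.32, while the genes with few reads (Vha68-3, Vha100-4, Vha36-2) scatter on both sides of 0.

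Each depleted gene was below 0 in every replicate of basal control heads. The accessory gene VhaAC45 had -0.79, -0.999 and -0.85, the subunit d gene VhaAC39-1 -0.63, -0.77 and -0.75, and VhaSFD (H) -0.59, -0.87 and -0.66. Vha14-1 (F) had -0.58, -0.73 and -0.61 and Vha100-1 (a) -0.55, -0.77 and -0.59. Replicate 2 was the lowest in these 5 genes, and also in Vha55, VhaPPA1-1, Vha68-2 and Vha36-1. Vha44 (C) lay at -0.06, -0.02 and -0.01, and of its exons 3.68% lie opposite those of Hmgs.

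The other groups gave similar counts. In control HS heads 3 of 22 V-ATPase genes were higher and 15 lower (70.8% of all 10119 genes passed, 35.0% higher and 35.7% lower). The 22 include Vha68-3, with 12, 18 and 20 counts in input and 4, 4 and 2 counts in IP libraries of this group. It passed the filter on low counts only through its input libraries, which favoured a value below 0, so its value is no test. In UAS-*dTrmt10A* heads the counts were 2 and 14 of 21 in basal conditions (62.4%, 31.1% and 31.3% of all 10104 genes) and 1 and 15 of 22 after HS (69.4%, 33.6% and 35.8% of 10267). In *dTrmt10A* RNAi heads they were 3 and 14 of 21 (73.7%, 35.4% and 38.4% of 10097). With input and IP as a pair, Vha44 also passed as lower in basal UAS-*dTrmt10A* heads (-0.13, adjusted p = 0.0305 from edgeR) and Vha26 as higher in UAS-*dTrmt10A* HS heads (0.16, adjusted p = 0.0474). The medians over the V-ATPase genes were -0.77, -0.50, -0.65 and -0.77 in these groups, against -0.08 to -0.05 over all genes. Vha13 passed as higher in all 5 groups, with fitted values from 0.20 to 0.46, but in control HS heads it lost the threshold without replicate 1 and without replicate 3 (adjusted p = 0.0524 and 0.0644 from edgeR) and was -0.08 with total library size. It also lost the threshold without replicate 2 in UAS-*dTrmt10A* HS heads (adjusted p = 0.0507 from edgeR, up to 0.138 over all alternatives) and without replicate 2 in *dTrmt10A* RNAi heads (adjusted p = 0.0508, up to 0.358). Vha26 (higher) and Vha68-1 (lower) lost it in all 3 fits with a replicate left out in *dTrmt10A* RNAi heads (adjusted p up to 0.0943 and 0.141 from edgeR). In basal UAS-*dTrmt10A* heads both lost it in 2 of 3 such fits. Vha68-1 also lost it in 1 of 3 in control HS and 2 of 3 in UAS-*dTrmt10A* HS heads.

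In basal control heads IP/input rose with the merged exon length of a gene, and the medians of the V-ATPase genes lay below those of all genes in each length range that holds them. Across all 10072 genes with an exon length, Spearman's rho of log2 IP/input and length was 0.319 in basal control heads, and across the 20 V-ATPase genes it was 0.108; both are descriptions across genes, which share libraries and are not replicates. Among genes of up to 1000 bp of exon the median was -0.29 over all 1615 genes and -0.65 over the 4 V-ATPase genes. It was -0.27 and -0.63 from 1000 to 2000 bp (6 V-ATPase genes), -0.07 and -0.70 from 2000 to 3000 bp (6 genes) and 0.22 and -0.31 from 3000 to 5000 bp (4 genes). Vha13 is thus a gene with a short exon length (943 bp) and IP/input above 0, and Vha55 one with a longer exon length (2786 bp) and IP/input well below 0. The lysosomal list was low as well, with 1 gene higher and 13 lower of 17 in basal control heads (35.3% and 34.6% of all genes), whereas 4 of the 5 vesicular transporters were higher and 1 was lower, and 2 of the 6 assembly genes were higher and 3 lower.

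Changes in IP/input between groups were then tested as differences of these ratios, and without pairing no V-ATPase gene passed in any of the 6 comparisons in edgeR. With the input and IP of each RNA sample as a pair, 2 passed with HS in UAS-*dTrmt10A* heads, 1 with UAS-*dTrmt10A* in basal heads, 4 with UAS-*dTrmt10A* in HS heads and 0 in the other 3 comparisons. The counts that follow are without pairing. With HS, 0 of 22 genes passed in control heads (0.0% of all 10450 genes) and 0 of 22 in UAS-*dTrmt10A* heads (0.0378% of 10588), and before adjustment 1 and 3 V-ATPase genes were lower at p under 0.05 and 0 were higher. In the control comparison Vha68-3 passed the filter only through its HS input counts (12, 18 and 20). This favoured a fall of its IP/input with HS, so its value there is no test. With UAS-*dTrmt10A*, 0 of 21 passed in basal heads (0.0% of 10368) and 0 of 22 after HS (0.945% of 10476). Before adjustment, 1 gene was higher and 1 lower in basal heads and 6 were higher and 1 lower after HS. With *dTrmt10A* RNAi 0 of 21 passed (0.0% of 10343), and for the difference in the response to HS 0 of 22 (0.0% of 10753), with 0 genes at an unadjusted p under 0.05 in both. DESeq2's Wald test gave 0 in 5 of these comparisons and 1 in basal UAS-*dTrmt10A* heads.

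That gene was Vha16-1, whose enrichment in the IP was not seen in basal UAS-*dTrmt10A* heads. Its log2 IP/input was 0.36, 0.53 and 0.55 in control, -0.00, 0.05 and -0.05 in UAS-*dTrmt10A*, and 0.81, 0.42 and 0.68 in *dTrmt10A* RNAi heads in basal conditions. All UAS-*dTrmt10A* values lay below all control and RNAi values, while control and RNAi overlapped. The change with UAS-*dTrmt10A* was -0.48 (SE 0.092, adjusted p = 0.0793 from edgeR), its unadjusted p was 1.55e-04, and leaving out one library at a time gave -0.53 to -0.46. With the IP and input of each RNA sample taken as a pair (replicate block) it passed at -0.48 (SE 0.076, adjusted p = 3.44e-04 from edgeR), where 7.97% of all genes passed. Over the other alternatives the adjusted p ran from 3.08e-04 with DESeq2's Wald test to 0.509. Input RNA of Vha16-1 in these heads was 633 CPM on average against 631 in control. The 5 neuronal markers had a median change in IP/input of -0.38 in the same comparison (-0.49 to -0.10, 0 of 5 past the threshold), and their part in the value of Vha16-1 was not tested.

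After HS the change at Vha16-1 had the same sign. Its log2 IP/input was 0.44, 0.40 and 0.63 in control HS and -0.02, 0.17 and 0.40 in UAS-*dTrmt10A* HS heads, so all 3 UAS-*dTrmt10A* values were below all control values by a narrow margin. The change was -0.29 (SE 0.126, adjusted p = 0.271 from edgeR) and passed with the replicate block (-0.29, adjusted p = 0.0455). The difference between genotypes in the response of its IP/input to HS did not pass (0.18, SE 0.158, adjusted p = 1.00 from edgeR). With *dTrmt10A* RNAi the change was 0.14 (SE 0.124, adjusted p = 1.00 from edgeR).

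The replicate block called 5 other V-ATPase genes, all by small changes. With UAS-*dTrmt10A* in HS heads Vha100-2 was higher by 0.41 (adjusted p = 0.00686 from edgeR), VhaPPA1-1 by 0.30 (adjusted p = 0.0195) and Vha100-1 by 0.23 (adjusted p = 0.0395), where 12.5% of all genes passed. Vha100-2 had -1.21, -1.13 and -1.02 in control HS and -0.61, -0.66 and -0.91 in UAS-*dTrmt10A* HS heads, and VhaPPA1-1 had -0.83, -0.94 and -0.94 in control HS and -0.71, -0.61 and -0.52 in UAS-*dTrmt10A* HS heads. Both moved toward 0 without overlap between groups. With HS in UAS-*dTrmt10A* heads VhaM9.7-b was lower by 0.39 (adjusted p = 0.0465 from edgeR) and Vha14-1 by 0.29 (adjusted p = 0.0481), where 18.6% of all genes passed.

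**Figure D5:**
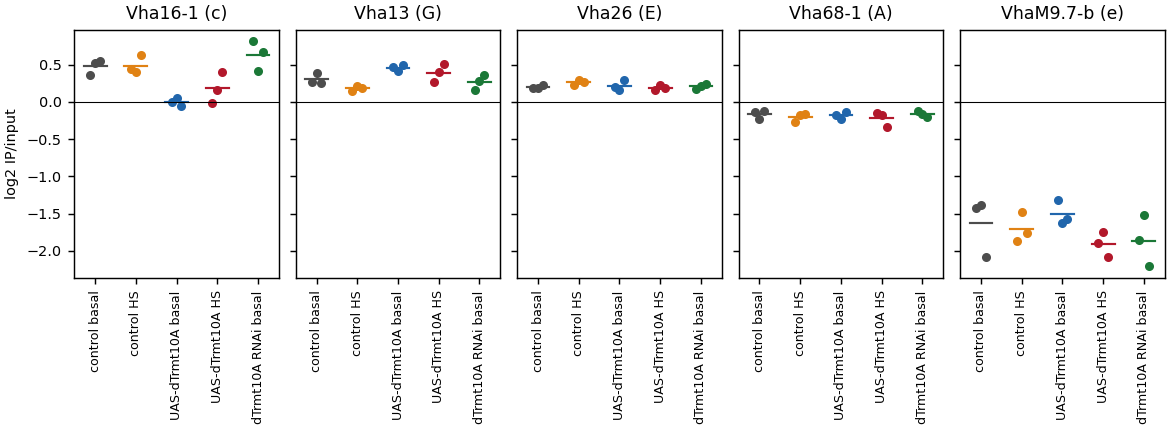
Log2 IP/input of 5 V-ATPase genes in the 5 groups, with 1 point per replicate and a bar at the mean of 3. Vha16-1 is near 0 in basal UAS-dTrmt10A heads (-0.05 to 0.05) and at 0.36 to 0.81 in the basal control and dTrmt10A RNAi heads, while Vha13, Vha26, Vha68-1 and VhaM9.7-b keep their side of 0 in all groups on this scale (with total library size the fitted value of Vha13 is -0.08 in control HS heads).

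The promoters of the genes were searched for CACGTG, the core of the site that the fly MITF factor is known to bind at lysosomal genes. The motif is the same on both strands, and the window ran from 250 bases before to 50 bases after the annotated start of each gene. It was found in 2 of 32 V-ATPase promoters (6.25%), Vha44 and VhaM9.7-d, and in 4.21% of 13923 promoters of protein-coding genes. Flanked by T and A it was found in 1 of 32, Vha44, and in 0.172% of all promoters. Of these genes Vha44 passed the threshold in no comparison of RNA, with 279.9 to 290.2 CPM in basal control and 284 to 288 CPM in control HS libraries, and VhaM9.7-d had at most 2 counts in any input library.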

How the data were processed

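Heads of 5 groups of flies, with 3 replicates each, gave 30 libraries (an input and an IP library per replicate). Per the labels and the study's methods, the authors trimmed reads with Trim Galore, aligned them to dm6 with STAR 2.7.3a and deposited 1 table of raw counts of reads per gene, made with summarizeOverlaps in union mode. The use of strand and of reads with several hits is not given in the sources used here. The labels name 1 m6A antibody for all replicates, while the methods name another for part of them, and this was not resolved. In all, 16847 of the 17562 gene names matched the annotation by symbol, 671 by an older symbol and 44 did not match.

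Each comparison used only its own groups. Low genes were dropped with filterByExpr (at least 10 counts, 15 in total), libraries were scaled with TMM, and edgeR 4.0.16 in R 4.3.3 gave quasi-likelihood tests with Benjamini-Hochberg adjustment over all genes tested (threshold 0.05). IP/input changes were fitted as interactions of assay and group. The SE is the log2 change divided by the root of F. CPM are TMM-scaled counts relative to library size, CPM per kb divide by the length of the merged exons, and per-replicate log2 values use a prior count of 2. Paralog shares were compared with exact permutation tests (SciPy 1.17.1). The fits were tested on simulated data. Alternatives were scaling by DESeq2's size factors or by total library size, TMM without mitochondrial genes, DESeq2 1.42.0 (Wald test), 2 other count filters, all libraries in 1 fit, a replicate block, and leaving out each replicate.

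Input and IP libraries of one number come from the same RNA and their deviations from the group means correlated (r 0.162 to 0.396). Inputs of control HS and UAS-*dTrmt10A* HS heads also did (0.137 to 0.248), so blocked values are given for both. Nothing states that replicates are separate cohorts of flies, so p-values measure the spread between these samples, which may be technical. Intervals and the floor of 3 counts cover counting error only, since the reads carry no molecular identifiers.

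The members and the gene lists were chosen with earlier results of these data known. Values per sample are given for members past the threshold in any change and for the most abundant gene of each subunit, and other members are given by range. Listed genes are named when past the threshold.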

Additional observations from a re-analysis of the deposited data

How the results depend on the processing

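The numbers of V-ATPase genes past the threshold stayed within 1.5 times of the reported ones in 216 of 235 recalculations. This rule takes both directions together and does not ask which genes passed. Where the reported number was 0, as in many of the comparisons, it asks only for 0 again. With total library size, 15 genes passed with HS in control heads (2 higher, 13 lower), 15 with HS in UAS-*dTrmt10A* heads (0 and 15) and 3 in the IP/input change with HS in UAS-*dTrmt10A* heads (0 and 3). That scaling turned Vha100-1 to -0.10, Vha13 to -0.02 and VhaM9.7-b to -0.07 with HS in control heads, Vha100-1 to -0.14, Vha16-1 to -0.14 and Vha55 to -0.20 with HS in UAS-*dTrmt10A* heads, and IP/input of Vha13 to -0.08 in control HS heads, since it lowers all genes together. Fitting all libraries together gave 8 genes with HS in UAS-*dTrmt10A* heads (7 higher, 1 lower), 6 with UAS-*dTrmt10A* in HS heads (4 and 2) and 1 in the IP/input change with UAS-*dTrmt10A* in basal heads. DESeq2's Wald test gave 2 genes for the RNA response to HS by genotype and 1 for the IP/input change with UAS-*dTrmt10A* in basal heads.

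With a replicate block, 6 genes passed for RNA with UAS-*dTrmt10A* in HS heads (4 higher, 2 lower), and for the IP/input changes 2 with HS in UAS-*dTrmt10A* heads, 1 with UAS-*dTrmt10A* in basal heads and 4 with UAS-*dTrmt10A* in HS heads. Beside these and the 3 calls of IP/input within groups given with the results, pairing changed no other call. In the other input comparisons same-numbered samples share only a number (r -0.141 to 0.185); there the block added VhaM9.7-c with HS in control heads (adjusted p = 0.0402 from edgeR), and added Vha55 and lost VhaAC39-1 with HS in UAS-*dTrmt10A* heads. Leaving out one replicate at a time gave 0 to 1 genes for RNA with UAS-*dTrmt10A* in HS heads (1 without control HS replicate 2) and 0 to 1 for the IP/input change with UAS-*dTrmt10A* in basal heads (1 without control basal replicate 1). Of 1035 recalculated values of single genes and paralog shares, 896 were classed as unchanged. Shares have no threshold and counted as unchanged within their spread. Of the values of single genes, 70 lost the threshold, 44 gained it and 7 changed sign with a call before or after. Sign changes without a call in either fit counted as unchanged. The other 18 were differences in the share of VhaPPA1-1 that stayed at 0.0 with no spread, so they did not move. Depth left 10 V-ATPase genes untested, and it limits Vha68-3 and Vha100-4, with 6 and 12 counts in basal control libraries.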
